A study of Mus musculus with 24 samples.

Results

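The libraries described here are the 12 made from mice given kainic acid (KA), 6 of them from 2 weeks and 6 from 24 h after the injection, out of 24 libraries in all. They were chosen by their labels alone. Each is a small RNA library of hippocampal exosome-enriched fractions (EEFs), the vesicle pellets and precipitates obtained from dissociated tissue. The mice were male C57BL/6 (C57BL/6OlaHsd in the study's methods), 6 to 9 weeks old at the start, with no genetic change, and received 0.3 µg KA in 0.2 µl into the right basolateral amygdala. This set off status epilepticus that spread to the hippocampus and was curtailed with 8 mg/kg midazolam. EEFs were prepared by ultracentrifugation (UC) or with a precipitation kit (ExoQuick), so that each combination of method and time held 3 libraries, each from hippocampi pooled over several mice. The other 12 libraries came from mice that received PBS in place of KA and were handled alike. They share no library with the KA comparison and give the background for anything that goes with time alone. Animals killed at 2 weeks were older, and the labels give no day of extraction or sequencing. Time since status epilepticus, age and any handling by time point therefore cannot be told apart within the KA mice. Each group was said by the study to hold biological samples.

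MicroRNAs (miRNAs) are short RNAs cut from hairpin precursors. Most hairpins yield a 5p and a 3p strand, of which one is usually loaded into an Argonaute protein and kept while the other is degraded. The loaded strand finds target mRNAs mainly through its seed, bases 2 to 8. Cells also release miRNAs in exosomes, small vesicles that bud inside endosomes. In this model, 24 h falls in the phase of acute injury and early gliosis, and 2 weeks in the phase when spontaneous seizures usually occur. miR-146a is known as an NF-κB-induced brake on innate immune signalling and is raised in astrocytes and microglia of epileptic tissue. miR-21 is known to be induced by injury and inflammation.

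Total counts were 88322 to 128783 per UC library at 24 h, 150256 to 168443 at 2 weeks, 273380 to 389402 per kit library at 24 h and 247015 to 676726 at 2 weeks. A single read was therefore worth 1.48 to 11.3 CPM (reads scaled to a common library size), and miRNAs with few reads are imprecise. The libraries held 420 to 609 miRNAs with at least 1 read. With UC the totals at 2 weeks were all above those at 24 h, and with the kit they overlapped. The p for a difference by time was 0.61 for total counts and 0.69 for miRNAs detected (exact permutation test within method over 400 assignments, two-sided). The highest total, 676726, belonged to kit library 2 at 2 weeks, which also had the highest miR-146a-5p and miR-21a-5p levels, and the values of both without it are given beside their results. Of markers of brain tissue, the neuronal miRNAs miR-9-5p and miR-124-3p were abundant in each of the 12 libraries, between 16440 and 32584 CPM and between 4381 and 6983 CPM. The microglial and blood cell miRNA miR-223-3p had at most 15.1 CPM, while miR-142a-5p of the same classes had 22.7 to 104 CPM. The red blood cell miRNAs miR-451a and miR-486b-5p had at most 72.0 CPM and 278 to 1726 CPM.

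The mature sequences of the miRNAs on which the results turn are given 5′ to 3′, from RefSeq on GRCm38.p6, with the seed in capitals. The first set holds both strands of the miR-21a hairpin, which behaved differently, and miR-146a-5p beside miR-146b-5p, its only tested seed mate.
miR-146a-5p: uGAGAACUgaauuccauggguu
miR-146b-5p: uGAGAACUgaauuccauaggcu
miR-21a-3p: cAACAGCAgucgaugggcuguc
miR-21a-5p: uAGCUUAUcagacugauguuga
The second set holds miRNAs described further on as values, and a seed mate where one is compared.
miR-1298-5p: uUCAUUCGgcuguccagaugua
miR-184-3p: uGGACGGAgaacugauaagggu
miR-10a-5p: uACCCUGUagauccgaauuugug
miR-10b-5p: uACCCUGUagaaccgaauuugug
miR-107-3p: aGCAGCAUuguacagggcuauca
miR-103-3p: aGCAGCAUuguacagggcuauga
The third set shows 3 names whose reads mostly differ from the annotated ends and whose UC libraries at 2 weeks all lay below those at 24 h. Their sequences are rich in G and C, at 100% for miR-5126, 78.9% for miR-6236 and 69.2% for miR-6240, against a median of 47.8% over the tested miRNAs with a sequence.
miR-5126: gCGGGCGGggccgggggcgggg
miR-6236: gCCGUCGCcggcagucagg
miR-6240: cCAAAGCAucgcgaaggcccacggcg
Of the 476 miRNAs tested, 426 matched a mature sequence by name.

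From 24 h to 2 weeks after KA, miR-146a-5p rose and miR-21a-3p fell, and no other miRNA of the 476 tested passed adjustment over both methods. These 2 calls are 0.42% of the miRNAs tested (edgeR quasi-likelihood test with method as covariate, Benjamini-Hochberg adjusted p under 0.05). At an unadjusted p under 0.05 there were 31, or 6.51%, with 10 higher (2.1%) and 21 lower (4.41%) at 2 weeks. The median log2 fold change over all 476 was −0.03, and 48.3% were above 0. Both called miRNAs are on the list of microglia and inflammation described further on. Its members were chosen with earlier results of these data known, so this is not a separate result.

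miR-146a-5p lies on the minus strand of chromosome 11 (hairpin chr11:43374397-43374461), where GENCODE M21 annotates no other gene. With UC its level was 1474, 1744 and 2016 CPM at 24 h and 4280, 5605 and 5676 CPM at 2 weeks. With the kit it was 596, 871 and 1010 CPM at 24 h and 1554, 8921 and 3402 CPM at 2 weeks. Every library at 2 weeks was above every library of the same method at 24 h. The means were 1745 ± 271 and 5187 ± 786 CPM (SD, n = 3) with UC and 826 ± 211 and 4626 ± 3833 CPM with the kit. The log2 fold change over both methods was 1.97 ± 0.31 (SE, edgeR, adjusted p = 2.62e-04). The kit mean rests largely on library 2, and without it the log2 fold change over both methods was 1.51 with adjusted p = 1.54e-04. These counts were 175 to 890 reads per UC library and 219 to 5100 per kit library.

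Taken by method, the change of miR-146a-5p on the log2 scale was 1.56 ± 0.30 for UC (edgeR, adjusted p = 0.00150). This call was lost in 3 of 17 alternatives, at 0.93 on the scaling to the study's reference miRNAs (adjusted p = 0.633), at 1.57 with 24 libraries in the fit (adjusted p = 0.0722) and at 1.56 with 12 (adjusted p = 0.0739). For the kit it was 2.46 ± 0.48 and did not pass (edgeR, adjusted p = 0.0520), and without kit library 2 at 2 weeks it was 1.61 (adjusted p = 0.993). The kit value passed in 11 of 17 alternatives, among them DESeq2 (2.42, adjusted p = 3.36e-04) and the fit with all 24 libraries (2.49, adjusted p = 1.80e-04). The difference between the methods was 0.81 ± 0.58 on the log2 scale and did not pass (edgeR, adjusted p = 0.910).

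miR-146b-5p, which has the same seed and differs from miR-146a-5p in the 3′ part and was not called. It had 5634 to 8019 CPM in the UC libraries at 24 h and 6008 to 6848 CPM at 2 weeks, with log2 fold change 0.03 ± 0.22 over both methods (edgeR, adjusted p = 0.977). The times overlapped.

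**Figure D1:**
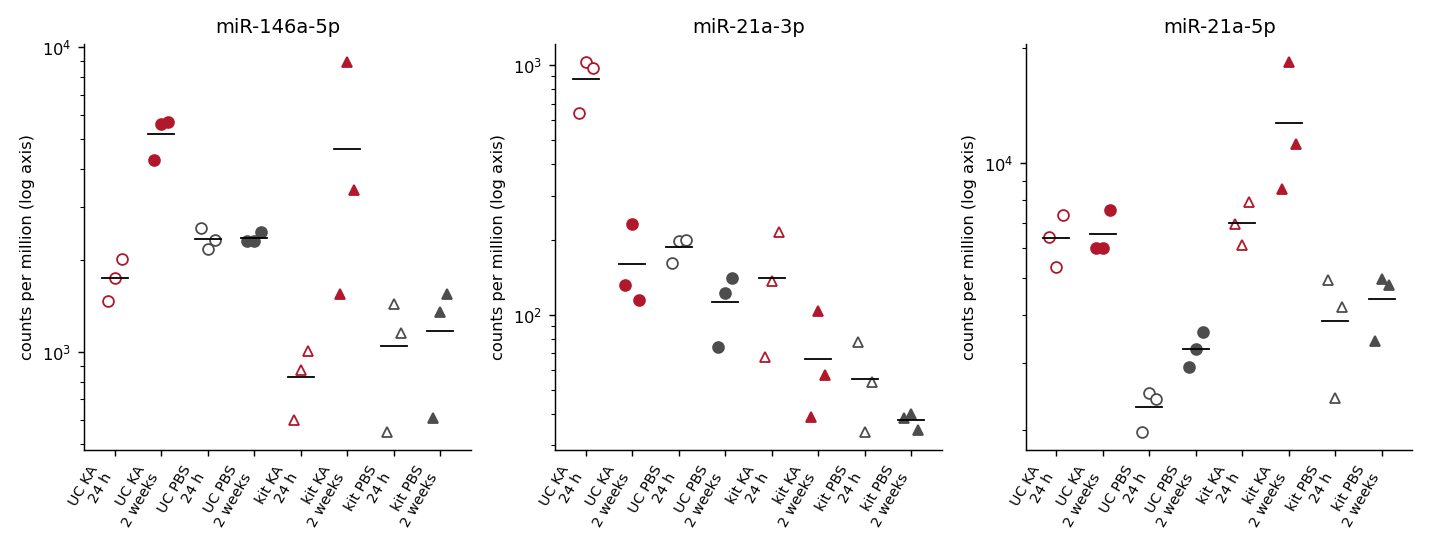
Level of miR-146a-5p, miR-21a-3p and miR-21a-5p in each of the 24 libraries, in CPM on a log axis, for UC (circles) and kit (triangles), KA (red) and PBS (grey), 24 h (open) and 2 weeks (filled), with the mean of each group of 3 as a bar. With UC, miR-146a-5p in KA mice sat between 1474 and 2016 at 24 h and between 4280 and 5676 at 2 weeks, miR-21a-3p went from 640 to 1024 down to 115 to 232, and miR-21a-5p overlapped between the times.

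miR-21a-3p, the strand of the miR-21a hairpin that is usually degraded, fell. The hairpin (chr11:86584067-86584158, minus strand) lies within an exon of Vmp1 that is annotated as untranslated, on the same strand. With UC its level was 640, 1024 and 968 CPM at 24 h and 131, 232 and 115 CPM at 2 weeks. With the kit it was 68.1, 136 and 215 CPM at 24 h and 39.0, 103 and 57.6 CPM at 2 weeks. The times did not overlap with UC, and they overlapped with the kit, where a library held as few as 9 reads. The log2 fold change over both methods was −1.83 ± 0.35 (edgeR, adjusted p = 0.00265). The value for UC was −2.50 ± 0.38 (edgeR, adjusted p = 2.26e-05). For the kit it was −1.01 ± 0.48 (edgeR, adjusted p = 0.992). The difference between the methods, 1.37 ± 0.64 on the log2 scale, did not pass (edgeR, adjusted p = 0.910).

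miR-21a-5p, the strand that is usually kept, was not called. It had 6402, 5346 and 7336 CPM with UC at 24 h and 6020, 6005 and 7544 CPM at 2 weeks, which overlap. With the kit it had 6941, 6122 and 7932 CPM at 24 h and 8546, 18372 and 11272 CPM at 2 weeks, which do not. The log2 fold change over both methods was 0.39 ± 0.23 (edgeR, adjusted p = 0.953), with 0.03 ± 0.29 for UC and 0.85 ± 0.31 for the kit (edgeR, adjusted p = 0.992). Without kit library 2 at 2 weeks these were 0.18 over both methods and 0.53 for the kit. In PBS mice miR-21a-5p had 1984 to 2510 CPM at 24 h and 2926 to 3625 CPM at 2 weeks with UC. With the kit the PBS libraries had 2432 to 4940 CPM and 3426 to 4995 CPM. The KA libraries thus lay above the PBS libraries of the same method at both times, a difference not tested here.

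The ratio of the strands is read within a library and does not depend on how libraries are scaled. With UC, miR-21a-3p reads were 10.0, 19.1 and 13.2% of miR-21a-5p reads at 24 h after KA and 2.18, 3.86 and 1.52% at 2 weeks. With the kit they were 0.981, 2.22 and 2.72% at 24 h and 0.456, 0.562 and 0.511% at 2 weeks. The times did not overlap with either method. Among 39 hairpins with at least 120 reads of each strand over the 12 libraries, miR-21a had the largest change in log2 ratio (−2.16 as the mean of both methods), followed by miR-320 with 0.90 and miR-1298 with −0.89. This rank was looked up after the values of miR-21a were known and is a description. In PBS mice the ratio was also lower at 2 weeks without overlap, from 7.85 to 8.22% down to 2.54 to 3.88% with UC and from 1.28 to 1.57% down to 0.719 to 1.13% with the kit. The log2 change of the ratio in PBS mice was −1.25 with UC and −0.70 with the kit, against −2.52 and −1.81 in KA mice, and this difference between treatments was not tested.

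The ends of miR-21a-5p also differed by time. Reads that carried 1 added C at the 3′ end made up 13.7, 11.5 and 11.0% of miR-21a-5p reads with UC at 24 h and 2.77, 2.46 and 2.28% at 2 weeks. With the kit the shares were 10.4, 3.50 and 6.70% at 24 h and 1.42, 0.352 and 0.830% at 2 weeks. The base that follows miR-21a-5p in its hairpin is C, so that such reads can also be read as 1 templated base longer, with that base in capitals:
miR-21a-5p with the next hairpin base: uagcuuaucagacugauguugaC
In PBS mice the shares were 3.49 to 5.43% at 24 h and 2.69 to 3.12% at 2 weeks with UC, and 2.39 to 4.43% and 1.25 to 2.87% with the kit. At 24 h the UC libraries of KA mice thus lay above those of PBS mice, and the kit libraries overlapped. This was noticed in the data and was set against all 78 miRNAs with at least 50 reads in each KA library. For the share of reads with any altered 3′ end, miR-21a-5p was the only one of the 78 (1.28%) whose times did not overlap with either method, with a difference of −7.99 percentage points. Its p of 0.005 is the smallest the exact permutation test can give and was 0.39 after adjustment over the 78. The difference did not pass, but a single miRNA at this smallest p could not pass over the 78, so this decides nothing. In PBS mice the difference for miR-21a-5p was −1.82 percentage points (exact permutation test, p = 0.045, adjusted p = 0.585).

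**Figure D2:**
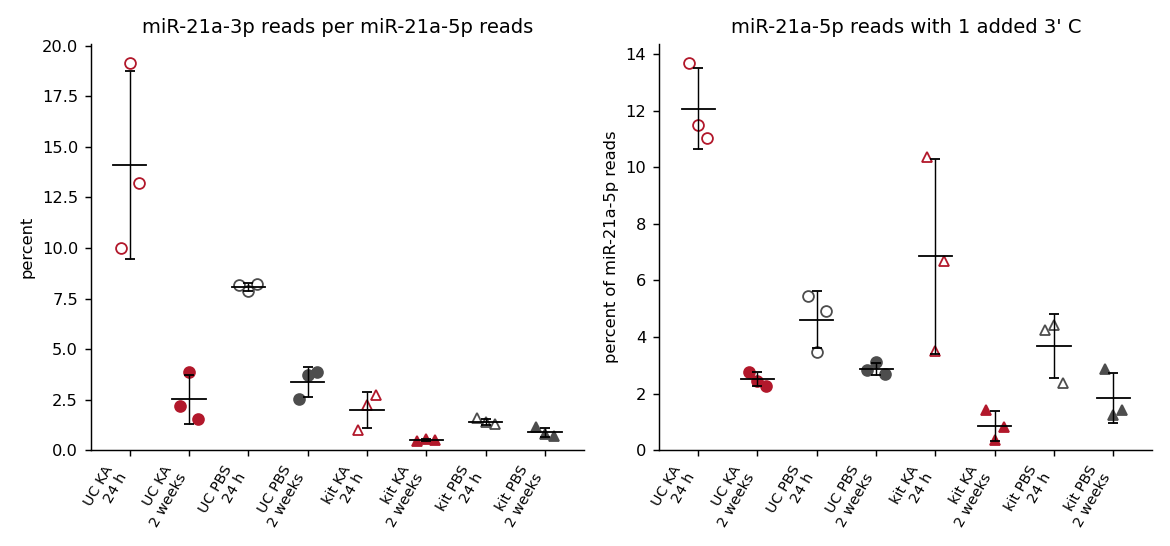
Reads of miR-21a-3p as a percent of reads of miR-21a-5p (left) and percent of miR-21a-5p reads with 1 added C at the 3′ end (right) in each of the 24 libraries, with the mean and SD of each group of 3. Among KA libraries (red) all open symbols (24 h) lie above the filled ones (2 weeks) of the same method in both panels. In PBS libraries (grey) the strand ratio shows the same order at smaller size. So does the added C in PBS libraries with UC, while with the kit its times overlap.

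In PBS mice the same contrast was run as background. Between 24 h and 2 weeks after PBS, 0 of 437 miRNAs passed adjustment by edgeR, limma-voom or DESeq2, and 28 (6.41%) had an unadjusted edgeR p under 0.05. miR-146a-5p overlapped between the times, with 2555, 2174 and 2328 CPM at 24 h and 2322, 2307 and 2478 CPM at 2 weeks with UC. With the kit it had 547, 1440 and 1159 CPM at 24 h and 608, 1353 and 1545 CPM at 2 weeks. Its log2 fold change in PBS mice was 0.04 ± 0.22 (edgeR, adjusted p = 0.976). The change after KA exceeded that after PBS by 1.94 ± 0.39 on the log2 scale (edgeR, treatment by time interaction, adjusted p = 0.00708). It was the only miRNA called in this interaction, 1 of 476 or 0.21%, and 30 (6.3%) had an unadjusted p under 0.05. The call was lost with limma-voom (1.81, adjusted p = 0.0970) and with scaling to the study's reference miRNAs, miR-92b-3p and miR-25-3p (1.85, adjusted p = 0.0864). With UC the KA libraries lay below the PBS libraries at 24 h and above them at 2 weeks, without overlap at either time. With the kit they overlapped at 24 h, and at 2 weeks all 3 KA libraries were above the PBS libraries, the lowest by a small margin (1554 against 1545 CPM).

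For miR-21a-3p the difference from PBS mice did not pass. In PBS mice it had 162 to 199 CPM at 24 h and 74.4 to 141 CPM at 2 weeks with UC, and 34.0 to 77.7 CPM and 34.6 to 40.0 CPM with the kit. The log2 fold change was −0.70 ± 0.31 (edgeR, adjusted p = 0.717). The interaction was −1.07 ± 0.44 on the log2 scale (edgeR, adjusted p = 0.705).

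**Figure D3:**
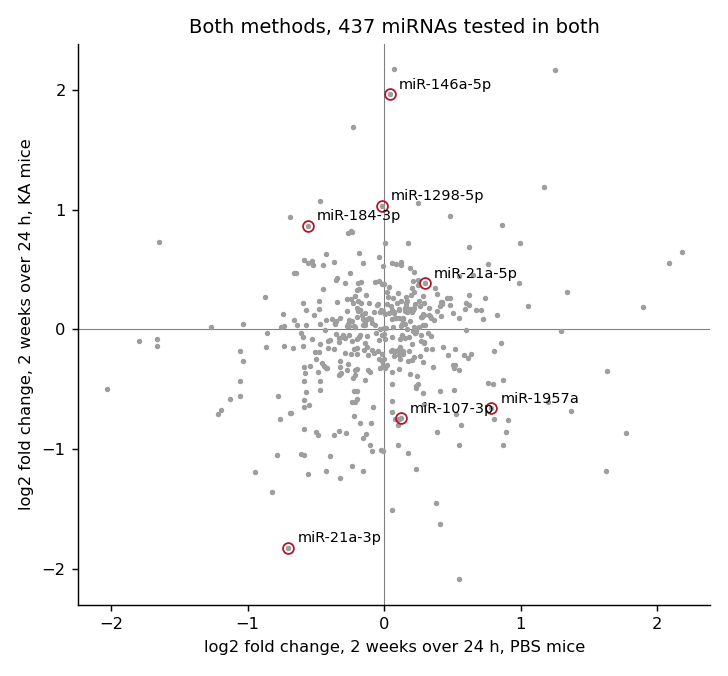
Log2 fold change from 24 h to 2 weeks over both methods in PBS mice (x axis) and in KA mice (y axis) for the 437 miRNAs tested in both, with some named miRNAs circled. miR-146a-5p sits at 0.04 and 1.97, and miR-21a-3p lies below 0 on both axes, at −0.70 and −1.83.

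Next in order were miRNAs that did not pass adjustment and are given as values. miR-1298-5p lies in an intron of Htr2c, the serotonin 2C receptor gene, on the X chromosome (chrX:147064905-147065002, plus strand), a gene known to be strongly expressed in choroid plexus. It had 253, 258 and 216 CPM with UC at 24 h and 542, 435 and 568 CPM at 2 weeks, which do not overlap. With the kit it had 280, 685 and 212 CPM at 24 h and 1134, 985 and 565 CPM at 2 weeks, which overlap. Its log2 fold change was 1.03 ± 0.29 over both methods (edgeR, adjusted p = 0.149), 1.06 with UC and 1.19 with the kit. It passed in 3 of 22 alternatives, with the replicate number as a block (1.11, adjusted p = 0.00147), with DESeq2 (1.07, adjusted p = 0.0490) and without kit library 2 at 24 h (1.38, edgeR, adjusted p = 0.00917). In PBS mice the log2 fold change was −0.01 ± 0.33. The PBS kit libraries had 201 to 884 CPM at 24 h and 234 to 1284 CPM at 2 weeks, which span the KA kit levels at 2 weeks. With UC the PBS libraries had 237 to 375 CPM and 122 to 281 CPM.

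miR-184-3p, known for effects on neuronal survival after seizures, had 143, 197 and 103 CPM with UC at 24 h and 304, 386 and 242 CPM at 2 weeks. With the kit it had 16.3 to 70.6 CPM at 24 h and 56.0 to 151 CPM at 2 weeks, on 6 to 42 reads a library. The UC times did not overlap and the kit times did. Its log2 fold change was 0.87 ± 0.35 in KA mice (edgeR, adjusted p = 0.477) and −0.56 in PBS mice, and the interaction of 1.46 ± 0.45 had the second lowest p of that test (edgeR, adjusted p = 0.502). The third was miR-1957a, nearly all of whose reads (99.9%) had an altered end, at −1.42 ± 0.46.

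miR-10a-5p, a miRNA of the Hox gene clusters, had 75.8 to 137 CPM with UC at 24 h and 173 to 421 CPM at 2 weeks. With the kit it had 219 to 496 CPM and 320 to 605 CPM, which overlap. Its log2 fold change was 0.81 ± 0.33 (edgeR, adjusted p = 0.477), while its seed mate miR-10b-5p had 0.20 ± 0.28. The times of miR-10b-5p overlapped with UC but not with the kit, at 453 to 801 CPM and 803 to 1062 CPM. How reads of this pair were assigned is not given in the sources used. miR-107-3p, from an intron of Pank1 and known for targets in metabolism, was on the lower side with −0.74 ± 0.25 (edgeR, adjusted p = 0.294). It had 1276 to 1879 CPM with UC at 24 h and 817 to 1231 CPM at 2 weeks, and 1462 to 3258 CPM and 1022 to 1683 CPM with the kit. Its seed mate miR-103-3p, which differs in a base near the 3′ end, had 0.17 ± 0.24, and reads of this pair may be assigned to either. miR-540-5p and miR-128-2-5p were also among the 5 lowest p-values in their directions, with 16 and 12 reads over the 12 libraries, too few for a level to be read. The reference miRNAs miR-25-3p and miR-92b-3p had log2 fold changes of 0.48 and 0.13, and neither passed. With UC, miR-25-3p had 285 to 341 CPM at 24 h and 441 to 867 CPM at 2 weeks, which do not overlap. For miR-92b-3p these were 258 to 362 CPM and 225 to 701 CPM, which overlap.

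Non-overlap of the times in both methods was rare. Only miR-146a-5p and miR-541-5p were higher at 2 weeks in every library than in every library at 24 h of the same method, and 0 were lower, which makes 2 of 476 or 0.42%. In PBS mice the same count was 4, or 0.84%. miR-541-5p, a miRNA of the imprinted Dlk1-Dio3 region, is named because it meets this count. It had 15896 to 18511 CPM with UC at 24 h and 19335 to 23044 CPM at 2 weeks, and 13992 to 15544 CPM and 17010 to 18950 CPM with the kit. The log2 fold change was 0.24 ± 0.18 (edgeR, adjusted p = 0.953).

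The methods were then taken alone. With UC, 5 of 476 miRNAs passed (edgeR, 1.05%), and 1 did where all 12 KA or all 24 libraries shared the estimate of spread. miR-146a-5p was the one that rose, and miR-21a-3p, miR-5126, miR-6236 and miR-320-5p fell. At an unadjusted p under 0.05 there were 42 (8.82%), 17 higher (3.57%) and 25 lower (5.25%). Deviations of UC libraries with the same replicate number correlated at 0.20 to 0.40, and these correlations were not tested. With the number as a block 14 were called, 4 higher and 10 lower. With the kit, 0 passed by edgeR and by limma-voom and 1 by DESeq2, and 14 (2.94%) had an unadjusted edgeR p under 0.05. Times did not overlap for 53 miRNAs with UC (11.1%) and for 28 with the kit (5.88%). In the test of whether the change differed between methods, 0 of 476 passed by edgeR, limma-voom or DESeq2, and 21 (4.41%) had an unadjusted edgeR p under 0.05. The lowest of these belonged to miR-16-5p, with 0.99 for UC and −0.21 for the kit, followed by miR-193a-3p on 28 reads and by miR-1895, with −0.98 for UC and 0.92 for the kit.

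3 of the 4 miRNAs that fell with UC, miR-320-5p, miR-5126 and miR-6236, are names whose reads over the 24 libraries mostly did not match the annotated ends (100%, 97.8% and 94.7% of reads with an altered end, against 30.0% for miR-146a-5p and 13.0% for miR-21a-3p). Whether such reads come from other RNAs was not tested. miR-6236 had 27471, 31675 and 32021 CPM with UC at 24 h and 19837, 11947 and 5574 CPM at 2 weeks, without overlap. For UC this was a log2 fold change of −1.34 ± 0.31 (edgeR, adjusted p = 0.0158). The call was lost in 7 of 16 alternatives, namely the stricter filter on counts, limma-voom, 12 or 24 libraries in the fit, and without UC library 1 or 2 at 24 h or library 2 at 2 weeks (adjusted p from 0.0604 to 0.179). The kit libraries had 1310 to 3303 CPM and a log2 fold change of 0.01 ± 0.38. miR-5126 had 148 to 212 CPM with UC at 24 h and 6.38 to 77.5 CPM at 2 weeks, the lowest of these from 1 read. miR-320-5p had 288 to 320 CPM and 76.5 to 137 CPM. miR-6240, with 73.0% of reads altered, was not called at −0.92 with UC (edgeR, adjusted p = 0.185) and had 2982 to 3162 CPM at 24 h and 1435 to 2104 CPM at 2 weeks.

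Of the 476 miRNAs, 95 (20.0%) had over 50% of their reads altered at an end. They made up 14 of the 21 that were lower over both methods at an unadjusted p under 0.05 and 1 of the 10 that were higher. Their reads were 5.63 to 5.79% of all reads in the UC libraries at 24 h and 2.24 to 4.16% at 2 weeks, and 2.25 to 3.01% and 2.41 to 2.65% with the kit. The UC libraries of PBS mice ranged from 3.40 to 6.03% over both times. When these 95 were left out, an alternative chosen after the data were seen, miR-146a-5p and miR-21a-3p were again the 2 miRNAs called over both methods and the 2 called with UC.

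**Figure D4:**
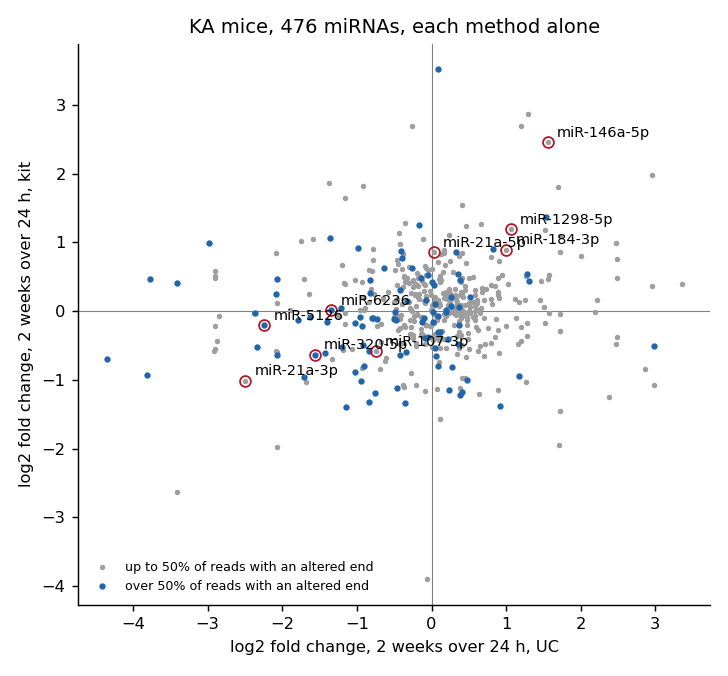
Log2 fold change from 24 h to 2 weeks in KA mice with UC (x axis) and with the kit (y axis) for 476 miRNAs, those with over 50% of reads altered at an end in blue. miR-146a-5p is at 1.56 and 2.46 and miR-21a-3p at −2.50 and −1.01, while miR-6236 is lower with UC (−1.34) and near 0 with the kit (0.01).

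The miRNAs of 11 lists, grouped by the cell type, process or locus they are known for, were read against the whole (median log2 fold change −0.03, 48.3% above 0, 0.42% called). On the list of microglia and inflammation, 8 of 12 members were tested, of which 1 rose (miR-146a-5p), 1 fell (miR-21a-3p) and 6 did not pass. The median was 0.24, and the members were chosen with earlier results of these data known. Among those that did not pass, miR-142a-5p, a miRNA of blood-derived cells and microglia, had 0.60, miR-142a-3p had 0.56 and miR-223-3p had −0.65. miR-155-5p, an induced miRNA of activated myeloid cells, had too few reads to be tested.

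None of the other 10 lists held a called miRNA. On the choroid plexus list, 7 of 9 tested members were above 0 and the median was 0.40. Among these 7, miR-1298-5p was at 1.03, miR-448-3p, which shares the Htr2c gene, at 0.56 and miR-204-5p at 0.54. The 2 below 0 were miR-204-3p, the other strand of the miR-204 hairpin, at −0.53 and miR-1264-3p at −0.93. This list took 0.251 to 0.328% of reads with UC at 24 h and 0.305 to 0.422% at 2 weeks, and 0.202 to 0.468% and 0.413 to 0.641% with the kit (exact permutation test, p = 0.03, adjusted p = 0.21 over 14 measures of library composition). In PBS mice its median was −0.01. The list took 0.350 to 0.609% of reads in PBS kit libraries at 24 h and 0.331 to 0.634% at 2 weeks. With the kit the KA and PBS shares thus overlapped at both times. The PBS libraries with UC had 0.202 to 0.274% and 0.136 to 0.265%, which lay below the KA libraries at 2 weeks only. The choroid plexus content of the dissected hippocampi was not tested. In EEFs from pooled tissue, cell number, RNA per cell, vesicle production and vesicle loading cannot be told apart.

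Of 13 neuronal miRNAs tested, 6 were above 0 and the median was −0.06, with miR-9-5p at 0.14 and miR-124-3p at −0.17. Of 14 miRNAs known to respond to neuronal activity or seizures, 4 were above 0 and the median was −0.10, with miR-132-3p, the best known of them, at −0.21 and miR-134-5p at −0.22. The oligodendrocyte list had 2 of 4 above 0 and a median of −0.07. The vessel and blood list had 7 of 8 above 0 and a median of 0.18, with miR-486b-5p of red blood cells at 0.81 and miR-451a at −0.01, in mice that had been perfused to remove blood. Both are among the names with mostly altered ends, at 87.2% of reads for miR-486b-5p and 99.3% for miR-451a. In PBS mice this list had a median of 0.32. The let-7 family had 8 of 9 above 0 and a median of 0.11, against 0.23 in PBS mice.

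The imprinted Dlk1-Dio3 region, which encodes many of the miRNAs of the adult brain, had 19 of 49 above 0 and a median of −0.18, against −0.11 in PBS mice. Its most abundant miRNA, miR-127-3p, had −0.20. The mesenchyme and scar list had 3 of 6 above 0 (median 0.07), the miR-17-92 cluster with its paralogues 5 of 9 (median 0.12), and the list of liver, muscle and skin miRNAs 1 of 2, with at most 0.00231% of reads in any KA library. The most abundant miRNAs over the libraries were miR-22-3p, miR-127-3p and miR-181a-5p, which took 47.4 to 55.7% of reads with UC and 36.8 to 39.8% with the kit, and a difference in this share by time did not pass (exact permutation test, p = 0.425). None of the 14 composition measures passed adjustment, and over 14 measures a single one could not pass even at the smallest p of this test. The lowest adjusted p, 0.21, was shared by the choroid plexus list and the miR-17-92 list (exact permutation test, p = 0.03 for each). The miR-17-92 list took 0.103 to 0.108% of reads with UC at 24 h and 0.127 to 0.153% at 2 weeks. With the kit it took 0.0977 to 0.124% and 0.107 to 0.132%.

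**Figure D5:**
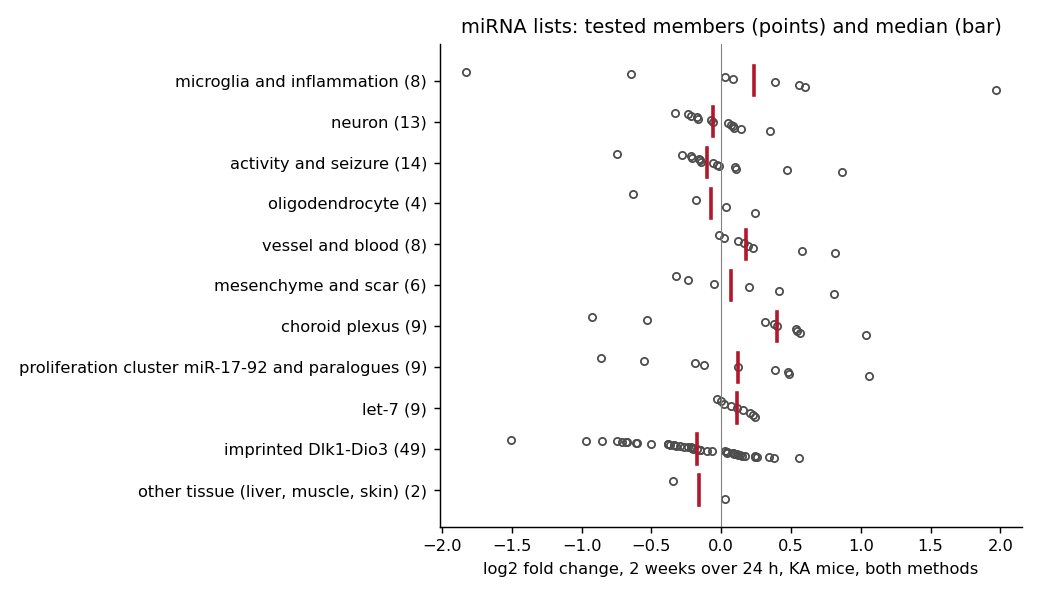
Log2 fold change from 24 h to 2 weeks in KA mice over both methods for each tested member (points) of 11 miRNA lists, with the number tested in brackets and the median as a red bar. The list of microglia and inflammation spans −1.83 to 1.97, and the medians lie between −0.18 and 0.40.

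A-to-G changes within miRNAs, the trace left by ADAR enzymes that convert adenosine to inosine, were compared at 6 sites. The edited base is in capitals in the 4 sequences found.
miR-376b-3p: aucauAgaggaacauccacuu
miR-411-5p: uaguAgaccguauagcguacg
miR-381-3p: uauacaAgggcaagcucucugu
miR-3099-3p: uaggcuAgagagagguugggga
Counted from 1 at the 5′ end, these are A6G, A5G, A7G and A7G, all within the seed, where a change alters the set of targets. At A7G of miR-3099-3p, 87.1 to 93.3% of reads were edited with UC at 24 h and 85.9 to 92.3% at 2 weeks, and 82.1 to 85.0% and 82.9 to 88.6% with the kit. At A6G of miR-376b-3p editing was 73.3 to 93.3% and 60.0 to 84.6% with UC, and 74.7 to 79.7% and 71.7 to 90.3% with the kit. The 11 libraries used, over both methods, held 13 to 87 reads of it each. At A5G of miR-411-5p editing was 21.2 to 25.1% and 15.4 to 26.3% with UC, and at A7G of miR-381-3p 0 to 3.33% and 2.78 to 4.11%. At position 16 of miR-378a-3p it was 60.7 to 65.3% and 54.5 to 66.9% with UC, and 42.2 to 57.8% and 32.6 to 47.0% with the kit. At position 14 of miR-421-3p it was 5.56 to 12.5% with the kit and 0 of 98 reads with UC, summed over 6 libraries. This allows a share of up to 3.06% if the reads are taken as independent. The UC libraries of PBS mice had 0 to 15.4% on 7 to 23 reads each, so UC fractions also held edited reads. The times overlapped at each site within each method, the mean differences ranged from −5.52 to 0.59 percentage points, and none passed (exact permutation test within method, two-sided, lowest p = 0.165, adjusted p from 0.726 to 0.905).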

How the data were processed

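Small RNA libraries of EEFs were sequenced by the study, and the authors trimmed the reads and used Chimira to map them to miRBase hairpins. The deposited files give raw counts for each mature miRNA in each library, and raw counts for each pattern of altered ends and internal changes. After entries that repeat another line were left out, the latter summed to the former for 11992 of 11992 pairs. Samples were grouped by the labels. The members and lists were chosen with earlier results of these data known. miRNAs with at least 1 read in 6 of the 12 KA libraries were tested with edgeR 4.0.16 (R 4.3.3, TMM, glmQLFit and glmQLFTest, Benjamini-Hochberg). limma 3.58.1 and DESeq2 1.42.0 were alternatives, beside other scalings, filters, blocks and each library left out. The tests were checked on simulated data. A standard error is the absolute log2 fold change divided by the square root of F. CPM were scaled with TMM over all 24 libraries. The miRNAs named had the 5 lowest p-values in each direction, the 3 lowest in each further comparison, were named by the study, or were the most abundant of a list. miR-541-5p, the ends of miR-21a-5p and the strand ratios were chosen after seeing their values. Editing levels used libraries with at least 10 reads. Editing, read ends and composition were computed in Python 3.11.15 with exact permutation within method. The p-values set a difference against the spread between these libraries, each a pool of hippocampi, and not between single mice. Counts are reads without molecular identifiers. How reads that match several hairpins were assigned is not given in the sources used here.

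Whether replicate numbers pair the KA libraries was checked by correlating deviations from the group means over 160 abundant miRNAs. The numbers are those the labels give. With UC the same-number correlations were 0.40, 0.39 and 0.20, all above 0.1, and with the kit 0.05, 0.61 and −0.02. No test was run on these correlations, so they do not settle whether the numbers are pairs. Replicates of a group differed well beyond sampling noise (chi-square per degree of freedom from 5.89 to 183 over 12 pairs), so none was counted as a repeat.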

Additional observations from a re-analysis of the deposited data

Results flagged for a closer look

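The change of miR-146a-5p from 24 h to 2 weeks differed between KA and PBS mice by 1.94 on the log2 scale (edgeR, treatment by time interaction over 24 libraries, adjusted p = 0.00708), with all 6 KA libraries at 2 weeks above all 24 h libraries of their method and the PBS libraries overlapping. Leaving out each library in turn gave values from 1.49 to 2.15, with edgeR adjusted p from 1.25e-04 to 0.0373. The lowest came without kit library 2 at 2 weeks after KA. Groups of 3 libraries were not tested for a library far from the others.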

How the results depend on the processing

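Over both methods, miR-146a-5p (log2 fold change 1.51 to 2.21) and miR-21a-3p (−2.17 to −1.56) passed under each of the 22 alternatives run. The count of calls stayed at 2 or 3 when any library was left out. It was 7 with the replicate number as a block, 2 higher and 5 lower, and this block changed neither of these calls. The block added miR-1298-5p among those higher, and miR-320-5p, miR-5126 and miR-6240 among those lower. Same-number correlations were all above 0 with UC only, and these correlations were not tested. With UC the 5 calls became 3 on the reference scaling (to miR-92b-3p and miR-25-3p, 0 higher, 3 lower), 3 with the stricter filter, 14 with the replicate block, 2 with limma-voom, 3 with DESeq2, 1 with all 24 libraries or with 12 KA libraries in the fit, 2 without miRNAs of altered ends, and 2 to 8 when a library was left out. The 8 came without UC library 3 at 2 weeks, and 2 without UC library 1 at 24 h or library 2 at 2 weeks. With UC, miR-146a-5p lost its call under 3 alternatives, at 0.93 on the reference scaling, 1.57 with 24 and 1.56 with 12 libraries in the fit. With the kit the 0 calls became 1, miR-146a-5p, under no filter, the reference scaling, the replicate block, DESeq2, 24 or 12 libraries in the fit and without miRNAs of altered ends, and 0 to 1 when a library was left out (0 without library 2 at 2 weeks or library 3 at 24 h). The method interaction had 2 calls with the block. The PBS comparison had 0 to 1 without a library, with 1 when kit library 1 at 24 h was left out. The treatment interaction had 0 calls with the reference scaling and with limma-voom and 2 with no filter. The reference scaling moved the median of all miRNAs to −0.22 over both methods, −0.54 with UC and 0.54 in the method interaction.

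Values near 0 changed sign. With the reference scaling these were miR-92b-3p (−0.18), miR-181a-5p (−0.089), miR-9-5p (−0.12), miR-219a-2-3p (−0.16), miR-143-3p (−0.030) and miR-10b-5p (−0.010) over both methods, miR-21a-5p with UC (−0.63) and in the treatment interaction (−0.073), and miR-146a-5p in PBS mice (−0.22). miR-22-3p was 0.014 with no filter and 0.059 with 24 libraries. miR-21a-5p with UC was −0.089 with library size only, −0.027 with the stricter filter and −0.053 without miRNAs of altered ends, and miR-146a-5p in PBS mice was −0.042 with the stricter filter. When a library was left out, the ranges were −0.17 to 0.37 for miR-92b-3p, −0.21 to 0.18 for miR-22-3p, −0.087 to 0.35 for miR-143-3p, −0.21 to 0.17 for miR-21a-5p with UC, −0.11 to 1.20 for miR-146a-5p in the method interaction, −0.11 to 0.18 for it in PBS mice and −0.078 to 0.22 for miR-21a-5p in the treatment interaction. None of these was called in the comparison given.

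Differences in composition and editing, none of which passed, also changed sign. With UC only the difference was 6.33 miRNAs detected and −0.329 percentage points for the vessel and blood list. With the kit only it was −0.0552 for neuron, 0.996 for activity and seizure, −1.07 for let-7 and −0.000244 for other tissue. Without 1 replicate the ranges were −24.0 to 11.5 miRNAs detected, −0.558 to 0.511 points for neuron, −2.16 to 0.582 for activity and seizure, −0.0871 to 0.0331 for oligodendrocyte, −1.08 to 0.839 for let-7 and −0.000336 to 0.000471 for other tissue. Editing of miR-3099-3p was −2.09 points with UC only, −0.0858 with reads summed and −0.571 to 1.42 without 1 replicate. That of miR-376b-3p was 2.07 with the kit only, 0.217 with the replicate block and 2.27 without replicate 3, that of miR-381-3p −0.361 with the kit only and that of miR-421-3p 0.0943 with reads summed. The cause of these shifts was not tested. At 88322 counts in the shallowest UC library, 1 read was worth 11.3 CPM, which limits low miRNAs most.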
